A study of Homo sapiens with 6 samples.

Results

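Transcripts of 10 genes for matrix proteoglycans and matricellular proteins were followed in HMLE, an immortalized but non-tumorigenic line derived from the human breast epithelium, as it underwent an epithelial-mesenchymal transition (EMT) in the presence or absence of the ω-3 fatty acid DHA. The genes were DCN, LUM, BGN, VCAN, SPOCK1, MGP, SPARC, POSTN, FN1 and TNC, taken by gene symbol, and 19 of the 47323 probes on the array belong to them, as 10 of 20046 genes. Of the 10, 9 were above background on at least 1 array, and POSTN was above background on none.

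There were 6 conditions with 1 array each, of the Illumina HumanHT-12 v4 type, and all 6 arrays lay on 1 BeadChip. Snail+DHA cells carried ectopic Snail, a transcriptional repressor of epithelial genes, and received 20 μM DHA; Snail cells carried the transgene alone. TGFb+DHA cells received 1 ng/mL TGF-β and 20 μM DHA, and TGFb cells the ligand alone. That dose is the array labels', while the study's culture methods give a higher one without naming the arrays. DHA cells received 20 μM DHA with neither inducer, and Vector cells received no inducer and no DHA. The study delivered Snail with a retroviral vector and selected the infected cells, and gave control cells the empty vector, but whether the TGFb arrays also come from cells with the empty vector was not given in the sources used here. As a condition is 1 culture on 1 array, nothing measures the spread between replicates of a condition, and precision is limited by how few arrays there are.

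Small leucine-rich proteoglycans such as decorin, lumican and biglycan bind collagen fibrils and carry dermatan, chondroitin or keratan sulfate chains, while versican is a large chondroitin sulfate proteoglycan that binds hyaluronan. Matricellular proteins such as SPARC and tenascin-C are secreted into the matrix, where they tune adhesion and growth factor signalling more than they bear load. In the mammary gland most of these genes are known from the stroma, and fibronectin is a widely used marker of EMT.

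Per array, 37.69% to 42.15% of probes, 10399 to 11397 genes and 6 to 9 of the members exceeded background. The SNAI1 probe was above background on none of the 6 arrays, Snail arrays included, at log2 values of 5.88 to 6.02, and the sources do not say whether it lies within the ectopic transcript, so it does not check the labels. CDH1, the E-cadherin gene, was not above background on the Snail+DHA (6.06) and Snail (6.39) arrays, against 10.53 to 11.52 on the other arrays. Of 8 epithelial markers, 5 were above background on both Snail arrays, KRT5, KRT14, KRT18, ITGB4 and LAMB3. Mean log2 values of the 8 were 7.82 in Snail+DHA, 8.27 in Snail and 10.58 in Vector cells. TGFb cells kept epithelial transcripts, with CDH1 at 11.52 against 11.46 in Vector cells, EPCAM at 10.88 against 11.22 and KRT5 at 14.32 against 13.83. KRT18 was at 6.97 against 7.43, and KRT19 was above background on no array. The mesenchymal markers VIM (13.40 in TGFb against 11.62 in Vector cells) and CDH2 (8.75 against 7.65) were higher with TGF-β. TWIST1 was higher too, at 9.08 against 8.35. ZEB1, the last of the 4 mesenchymal markers, did not exceed background in TGFb (5.80) or Vector (5.88) cells. Its only signal over background came from Snail cells without DHA, at 6.49. Among markers of other cell types, the defining genes PTPRC and CD3E (leukocytes), VWF, CDH5 and KDR (endothelium) and PDGFRA and RGS5 (stroma) were above background on no array. PECAM1 (endothelium) was above it in Vector cells alone, at 6.45, and ADIPOQ (adipocytes) in Snail cells alone, at 6.44, while CD68, CD14, LEP, ACTA2 and FAP were above it on all 6. The pericyte gene PDGFRB had log2 values of 7.43 in Snail+DHA cells, 9.15 in Snail cells and 6.53 in Vector cells, and CD68 read 10.54 and 10.42 on the Snail+DHA and Snail arrays, against 8.39 to 8.78 on the other 4. Over the 5 pericyte and fibroblast markers, 3 were above background in Snail+DHA, Snail and Vector cells alike, with mean log2 values of 7.88, 8.20 and 7.29, and the part of such cells in the results was not tested. In a bulk culture, fewer cells that express a gene and less RNA per cell cannot be told apart.

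The promoters of 6 of the 10 members were found in RefSeq's table for GRCh38.p14, all but those of DCN, LUM, SPOCK1 and MGP. They are shown for the 4 of the 6 whose genes were at least 2-fold higher with Snail than with Vector, as the 250 bases before the annotated start, 5′ to 3′ on the gene's strand. SPARC lies at chr5:151686916-151687165 on the minus strand, FN1 at chr2:215436069-215436318 on the minus strand, VCAN at chr5:83471494-83471743 on the plus strand and BGN at chrX:153494730-153494979 on the plus strand. All motifs were searched on both strands, and capitals mark matches to the cyclic AMP response element TGACGTCA, to CCAAT and to TATAA.
SPARC: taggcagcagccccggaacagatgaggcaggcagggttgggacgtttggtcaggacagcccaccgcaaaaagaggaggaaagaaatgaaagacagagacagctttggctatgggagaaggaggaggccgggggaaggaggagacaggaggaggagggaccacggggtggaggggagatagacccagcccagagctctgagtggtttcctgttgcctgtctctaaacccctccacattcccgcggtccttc
FN1: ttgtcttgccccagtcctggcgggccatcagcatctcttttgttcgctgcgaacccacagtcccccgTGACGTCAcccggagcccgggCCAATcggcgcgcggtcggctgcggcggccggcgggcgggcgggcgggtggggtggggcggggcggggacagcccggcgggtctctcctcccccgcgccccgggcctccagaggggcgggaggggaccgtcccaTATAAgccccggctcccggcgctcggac
VCAN: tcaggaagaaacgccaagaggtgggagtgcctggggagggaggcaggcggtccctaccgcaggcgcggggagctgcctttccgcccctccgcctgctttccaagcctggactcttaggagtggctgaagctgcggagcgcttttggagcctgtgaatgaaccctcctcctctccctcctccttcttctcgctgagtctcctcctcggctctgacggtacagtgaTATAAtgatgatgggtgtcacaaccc
BGN: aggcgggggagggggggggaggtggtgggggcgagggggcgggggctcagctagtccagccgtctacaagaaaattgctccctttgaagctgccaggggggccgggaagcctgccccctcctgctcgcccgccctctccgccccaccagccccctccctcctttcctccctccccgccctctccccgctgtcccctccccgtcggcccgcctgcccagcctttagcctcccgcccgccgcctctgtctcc

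The 4 sequences differ in composition, with 76.4% G and C in FN1, 74.0% in BGN, 60.8% in VCAN and 59.2% in SPARC. FN1 alone among the 6 members held TGACGTCA, which 1.65% of 35116 promoters hold in the same window, and it also held CCAAT (32.0% of promoters) and TATAA (18.9%). The GC box GGGCGG, not set in capitals, matched at 6 places in FN1, 5 in BGN and 1 in VCAN, and is found in 42.6% of promoters. SPARC held none of the motifs searched. CACCTG, an E-box of the kind Snail proteins bind, is in 17.5% of promoters and was in none of the 6. CAGAC, the short SMAD box, is in 38.0% and was found in POSTN and TNC, and the AP-1 motif TGANTCA is in 6.57% and was found in POSTN. A match describes these letters in this window and no more. On the chromosomes, LUM and DCN are neighbours on chromosome 12, and VCAN lies beside HAPLN1, a hyaluronan link protein gene, on chromosome 5.

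**Figure D1:**
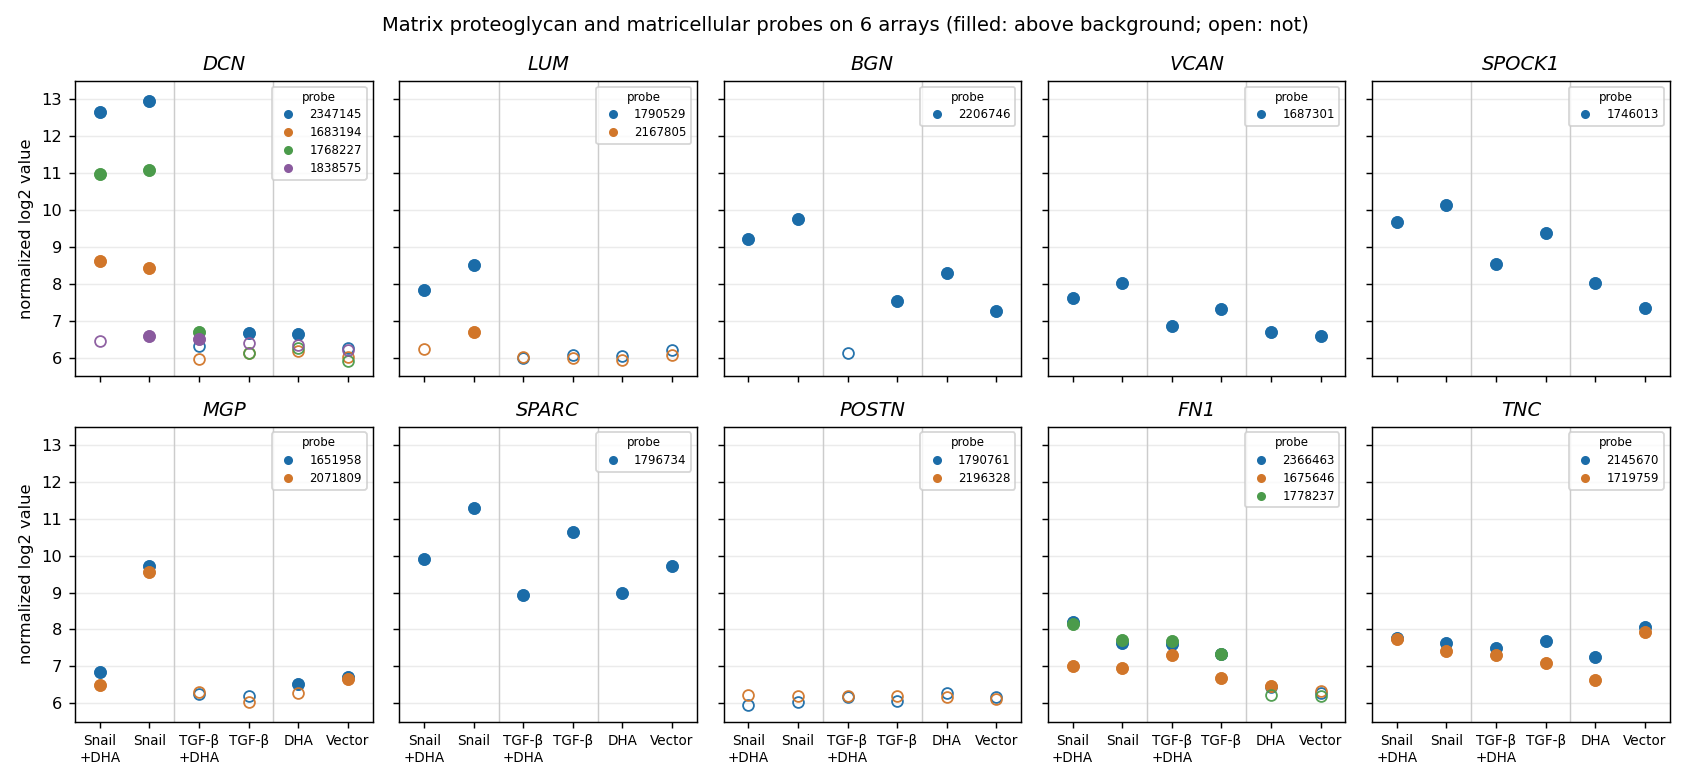
Normalized log2 value (y axis) of each member's probes on the 6 arrays (x axis), 1 panel per gene and 1 color per probe, the blue one representing the gene. Filled points were above background and open points were not. With their blue probes, DCN and LUM stand high only on the 2 Snail arrays. MGP stands high only on the Snail array without DHA, and POSTN on none.

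The question put to the first comparison was how Snail or TGF-β, both used as inducers of an EMT, changes these genes. Values are the authors' quantile-normalized log2 values, a difference of 1 is 2-fold, and a gene represented by several probes was read from the probe of highest mean. Levels of different probes are not comparable with each other. Where only 1 of the 2 arrays was above background, a fold is written as "at least N-fold": on the dim array the gene was set to its own value or to the dimmest probe detected there, whichever of these was larger.

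With Snail, 8 of the 9 members compared were at least 2-fold higher than with Vector, where 4.29% of 12203 genes were. DCN, LUM and FN1 entered this comparison through the Snail array alone, so the count is a description. Of the 6 members above background on both arrays, 5 were at least 2-fold higher, against 4.285% of the 10222 genes above it on both. The members' median log2 difference was 2.33, against 0.01 over all genes. TNC was the exception.

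Of the small leucine-rich proteoglycans, DCN, whose product decorin binds collagen and sequesters TGF-β, read 12.67 in Snail+DHA cells and 12.96 in Snail cells, against 6.31 in TGFb+DHA, 6.68 in TGFb, 6.65 in DHA and 6.25 in Vector cells, with the TGFb+DHA and Vector values of this probe not above background. Both Snail arrays thus lay far above the other 4, which stayed close to background. The Snail minus Vector difference of 6.71, at least 94.6-fold, was the highest of all 12203 genes. The other DCN probes differed in size, at 5.16 for the one next in level and 2.43 and 0.36 for the others, and all read highest on a Snail array. On 2 of them TGFb+DHA cells were just above background, at 6.71 and 6.51. With the mean of the kept probes the difference was 3.66.

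LUM, the gene of the corneal and dermal proteoglycan lumican, read 7.85 in Snail+DHA and 8.53 in Snail cells and was not above background on the other 4 arrays, at most at 6.2. Its difference between Snail and Vector was 2.33, at least 4.37-fold. The second LUM probe gave 0.61, under 2-fold, and the mean of both probes gave 1.47. That second probe read 6.69 in Snail cells, and its 6.24 in Snail+DHA cells did not exceed background. LUM and its neighbour DCN varied together, with a Pearson r of 0.98 over the 6 arrays, a description in which the 2 Snail arrays set the range.

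BGN, for biglycan, a proteoglycan that also signals through toll-like receptors when soluble, read 9.22 in Snail+DHA, 9.77 in Snail, 6.13 in TGFb+DHA, 7.55 in TGFb, 8.30 in DHA and 7.27 in Vector cells. It was above background everywhere except in TGFb+DHA cells. The Snail minus Vector difference was 2.50, a 5.64-fold higher value.

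Among the other proteoglycans, VCAN (versican) read 7.63 in Snail+DHA, 8.04 in Snail, 6.87 in TGFb+DHA, 7.31 in TGFb, 6.71 in DHA and 6.60 in Vector cells. The induced cells were above the uninduced cells both with and without DHA, and the Snail minus Vector difference was 1.44. SPOCK1, for testican-1, a proteoglycan of the SPARC family, read 9.68 in Snail+DHA, 10.14 in Snail, 8.55 in TGFb+DHA, 9.39 in TGFb, 8.01 in DHA and 7.35 in Vector cells. Snail cells exceeded TGF-β cells, and TGF-β cells the uninduced ones, both with and without DHA, and the Snail minus Vector difference was 2.79.

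Of the matricellular members, MGP (matrix Gla protein, an inhibitor of calcification that needs vitamin K dependent carboxylation) gave the clearest single-array pattern. It read 6.86 in Snail+DHA, 9.73 in Snail, 6.24 in TGFb+DHA, 6.20 in TGFb, 6.53 in DHA and 6.71 in Vector cells, and was not above background in the TGF-β arrays. Snail cells without DHA were the only ones above 7, and the Snail minus Vector difference was 3.01, or 2.89 with the second MGP probe.

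SPARC (osteonectin), a collagen chaperone and de-adhesive protein, read 9.90 in Snail+DHA, 11.28 in Snail, 8.93 in TGFb+DHA, 10.65 in TGFb, 8.98 in DHA and 9.73 in Vector cells. Snail cells exceeded Vector cells by 1.56. FN1, for fibronectin, read 8.21 in Snail+DHA, 7.62 in Snail, 7.60 in TGFb+DHA and 7.34 in TGFb cells, and on this probe was not above background in DHA (6.44) and Vector (6.29) cells. Another FN1 probe was just above background in DHA cells, at 6.47, and not in Vector cells. All 4 arrays with an inducer lay above both without one, and Snail exceeded Vector by 1.34, at least 2.34-fold. With the probe just named the difference was 0.60, under 2-fold, and with the remaining FN1 probe 1.52.

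TNC, for the de-adhesive glycoprotein tenascin-C, read 7.77 in Snail+DHA, 7.63 in Snail, 7.49 in TGFb+DHA, 7.67 in TGFb, 7.26 in DHA and 8.07 in Vector cells. It was highest in Vector cells, and the Snail minus Vector difference was -0.44. POSTN, for periostin, was not above background with either of its 2 probes, at 5.96 to 6.29, so its level in these cells was not measurable here.

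With TGF-β, differences were fewer and smaller. SPOCK1 and FN1, 2 of the 8 members compared, had a log2 difference from Vector of 1 or more, as had 1.17% of 12089 genes. SPOCK1, at 2.04, had the highest difference of all genes compared. FN1 differed by 1.06, but as it was not above background in Vector cells its bound is lower, at least 1.92-fold. With the mean of its probes it differed by 0.84, and its other probes gave 0.33 and 1.12. FN1 entered this comparison through the TGFb array alone, so the count is a description. SPARC at 0.92 and VCAN at 0.71 stayed under 2-fold. DCN at 0.43, BGN at 0.28, TNC at -0.39 and MGP at -0.52 lay within the range of the central 95% of genes. The other TNC probe, at -0.86, lay below that range. Both comparisons use the same Vector array.

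**Figure D2:**
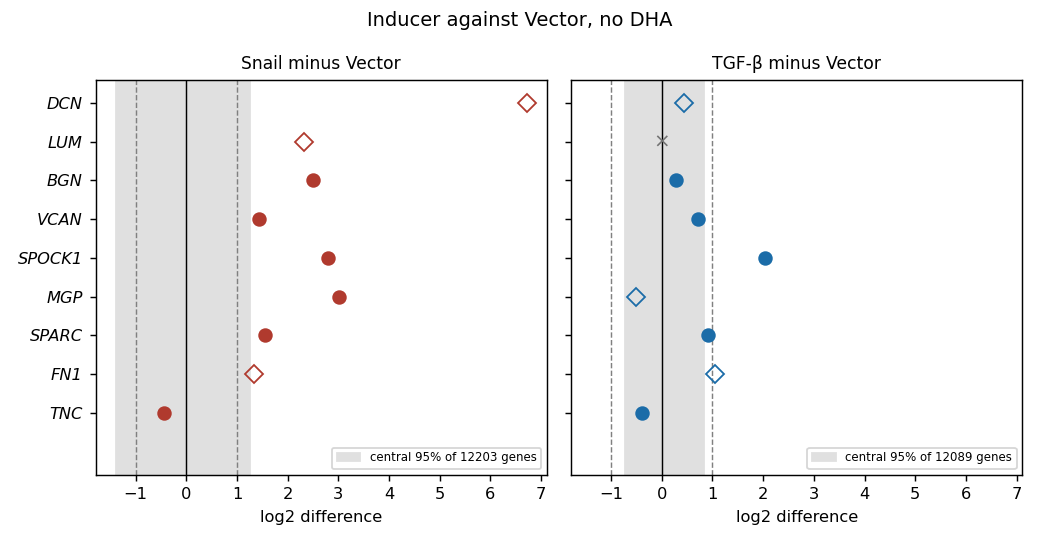
Log2 difference (x axis) of each member (y axis) between Snail and Vector (left) and TGF-β and Vector (right), from 1 array each. Diamonds were above background on only 1 of the 2 arrays, a cross marks a member above it on neither, the dashed lines are 2-fold and the band holds the central 95% of all genes compared. With Snail, 8 members lie beyond 2-fold, and with TGF-β SPOCK1 and FN1 do.

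The same inducers were also compared in the presence of DHA, with the DHA array as the shared control. In Snail+DHA cells 4 of 9 members were at least 2-fold higher than in DHA cells, against 4.54% of 11536 genes. LUM and FN1 entered this comparison through the Snail+DHA array alone, so the count is a description. DCN differed by 6.02, again the highest of all genes, LUM by 1.80 (at least 2.63-fold), FN1 by 1.77 (at least 3.39-fold) and SPOCK1 by 1.66. The second LUM probe, above background on neither array, gave 0.31, and the other FN1 probes 0.54 and 1.93. VCAN (0.92), SPARC (0.93) and BGN (0.92) lay just under 2-fold, and MGP differed by 0.33. TNC differed by 0.52, opposite in sign to its Snail minus Vector difference, and by 1.12 with its other probe, with which the count would be 5 of 9. In TGFb+DHA cells FN1, 1 of 8 members compared, was at least 2-fold higher than in DHA cells, by 1.16, against 1.93% of 11608 genes. BGN, also 1 of the 8, was lower by at least 3.64-fold, with a log2 difference of -2.17, against 1.96% of genes lower. FN1 entered through the TGFb+DHA array alone and BGN through the DHA array alone, so these counts are descriptions. The other FN1 probes differed by 0.84 and 1.47.

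The second question was what DHA does to these genes on each background. In Snail cells DHA left most members within 2-fold, and 2 of 9, MGP and SPARC, were at least 2-fold lower, against 2.4% of 11579 genes. MGP was 7.29-fold lower, with a difference of -2.87 that was the second lowest of all genes, and its second probe gave -3.05. Its level in Snail+DHA cells, 6.86, was close to that of Vector cells, 6.71. SPARC differed by -1.38. DCN (-0.30), LUM (-0.68), BGN (-0.55), VCAN (-0.41) and SPOCK1 (-0.46) were lower by less than 2-fold, and FN1 was higher, by 0.59. The Snail array enters both this comparison and that with Vector, so any error on it moves the 2 in opposite directions.

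In TGF-β cells DHA gave 2 members of 7 at least 2-fold lower, SPARC and BGN, against 3.65% of 11964 genes. SPARC read 8.93 in TGFb+DHA cells against 10.65 in TGFb cells, a difference of -1.71. BGN was not above background in TGFb+DHA cells and was at least 2.16-fold lower than in TGFb cells, with a log2 difference of -1.42. It entered this comparison through the TGFb array alone, so the count is a description. SPOCK1 (-0.84) and VCAN (-0.44) were lower by less than 2-fold, and FN1 differed by 0.26.

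Without an inducer, BGN was the 1 member of 7 at least 2-fold higher in DHA than in Vector cells, against 0.312% of 11848 genes. Its difference of 1.03 ran opposite to that on both induced backgrounds. SPOCK1 differed by 0.66, SPARC by -0.75, TNC by -0.81 and MGP by -0.18. The second TNC probe read 6.62 in DHA and 7.94 in Vector cells, a difference of -1.32. When the arrays were scaled to a common median in place of quantiles, the median of all genes shifted to -0.21 in DHA against Vector, -0.18 in Snail+DHA against Snail and -0.17 in TGFb+DHA against TGFb, and BGN differed by 0.78, SPARC by -1.11 and TNC by -1.06 in DHA against Vector.

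**Figure D3:**
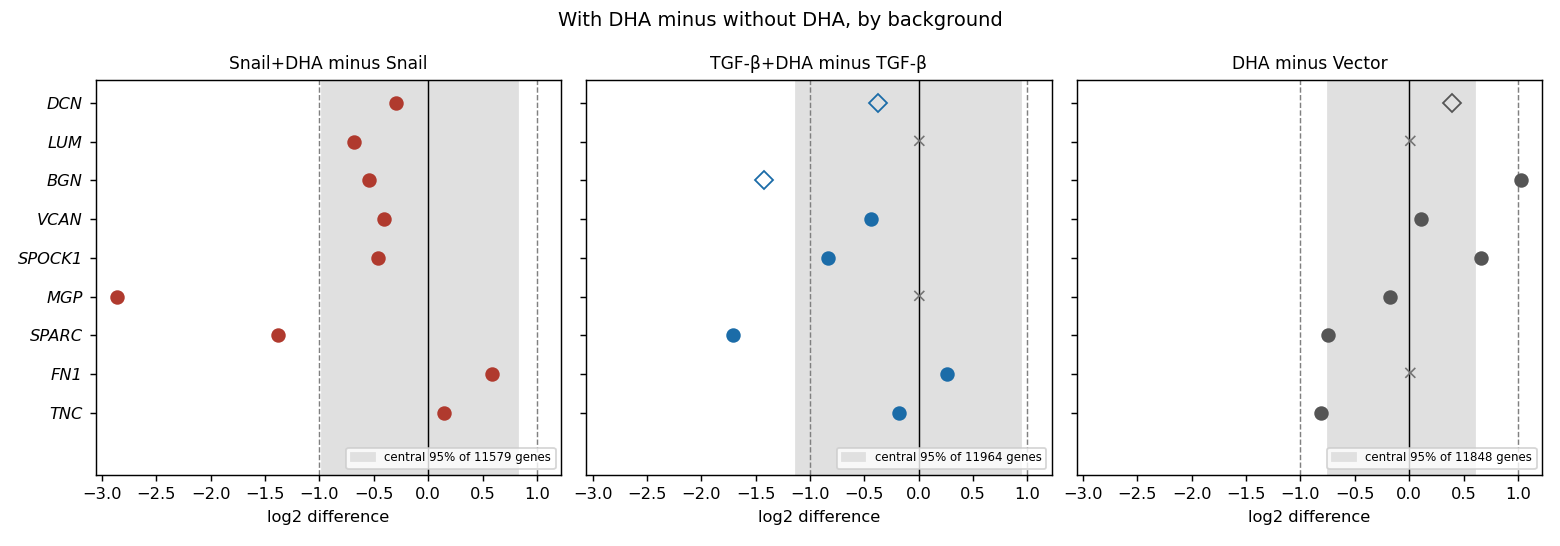
Log2 difference (x axis) of each member (y axis) with DHA minus without it, in Snail (left), TGF-β (middle) and Vector (right) backgrounds, from 1 array each. Diamonds were above background on only 1 of the 2 arrays, crosses mark members above it on neither, the dashed lines are 2-fold and the band holds the central 95% of genes. SPARC lies left of 0 in all 3 panels, MGP far left in Snail only, and BGN changes side.

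An additive fit in limma over all 6 arrays, with a term for the inducer and one for DHA, gave the error of these differences. Its 2 residual degrees of freedom measure how the DHA difference varies between backgrounds, not the spread between replicates, and p-values are adjusted by Benjamini-Hochberg over 13239 genes. LUM passed the detection filter only through the Snail arrays, and FN1, on the probe used, only through the 4 arrays with an inducer. Their Snail terms of 2.07 and 1.55 ± 0.19 (SE) are thus descriptions with no test. Of the other members, DCN, SPOCK1, VCAN and SPARC passed an adjusted p of 0.05 for the Snail term with a higher value, against 3.36% of genes. As the members were chosen with earlier results of these data known, this count is a description. DCN rose by 6.37 ± 0.26 (limma, adjusted p = 4.97e-05), read in part from arrays where it was not above background. On the arrays without Snail its probe read 6.25 to 6.68, at or near background, so this error rests in part on such signals. That probe was the one of highest mean, and with the mean of the kept probes the term was 3.49. SPOCK1 rose by 2.23 ± 0.35, VCAN by 1.18 ± 0.20 and SPARC by 1.24 ± 0.28, with adjusted p from limma of 0.00955, 0.0123 and 0.0358. BGN, at 1.71 ± 0.49 (limma, adjusted p = 0.0818), and MGP, at 1.67 ± 0.61 (limma, adjusted p = 0.154), did not pass, and TNC was at 0.04 ± 0.26.

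MGP and BGN were also the members least well described by terms that add. The residual SD was 1.15 for MGP and 0.88 for BGN, larger than in 99.86% and 99.47% of genes, against 0.16 for FN1, the smallest among the members. SPOCK1 had 0.55, larger than 96.55% of genes.

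For the TGF-β term, 0 of 9 members passed in limma, where 8 genes (0.0604%) did and 771 had an unadjusted p under 0.05. SPOCK1 was at 1.29 ± 0.35 (limma, adjusted p = 0.722), and FN1 at 1.11 ± 0.19, again a description. For the DHA term, 0 of 9 members and 0 genes (0%) passed in limma, with or without a variance trend, while 1677 genes had an unadjusted p under 0.05. SPARC was at -1.28 ± 0.23 (limma, unadjusted p = 0.000552, adjusted p = 0.247) and was lower with DHA on 3 of 3 backgrounds. In a fit to the Snail and TGF-β backgrounds alone, with 1 residual degree of freedom, 834 genes (6.3%) passed for DHA, and with them SPARC at -1.55 ± 0.20 (limma, adjusted p = 0.0041) and BGN at -0.98 ± 0.24 (limma, adjusted p = 0.0376). MGP in that fit was at -1.41 ± 0.48 (limma, adjusted p = 0.114). That fit leaves out the background on which BGN ran the other way. Without the Snail background 0 members and 17 genes passed in limma, and without the TGF-β background 0 members and 0 genes.

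**Figure D4:**
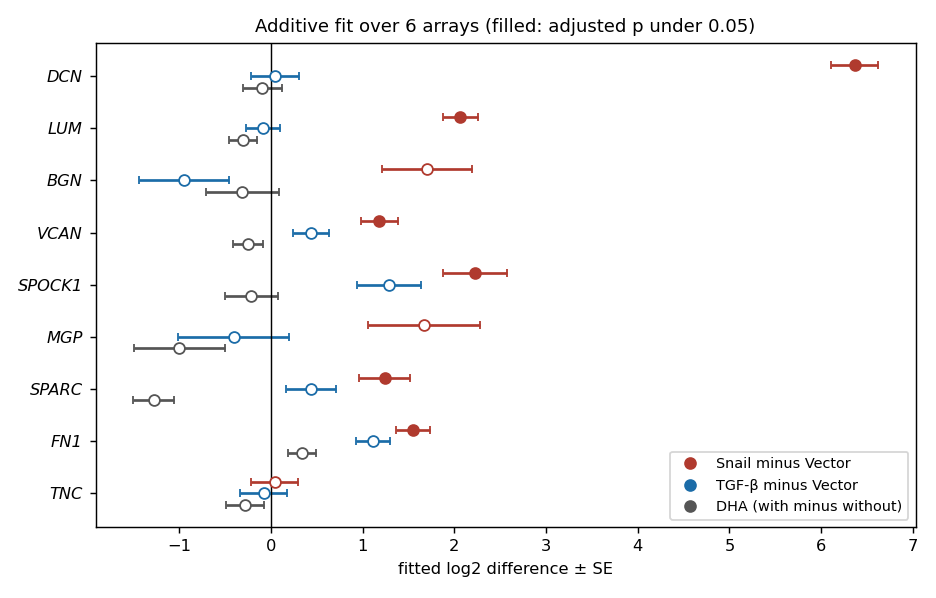
Fitted log2 difference ± SE (x axis) of each member (y axis) for the Snail, TGF-β and DHA terms of an additive limma fit over 6 arrays. Filled points have an adjusted p under 0.05, which no member reaches for TGF-β or DHA. For Snail, DCN, VCAN, SPOCK1 and SPARC reach it. LUM and FN1 are filled too, but LUM passed the detection filter only through the Snail arrays and FN1 only through arrays with an inducer.

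The relatives and partners of these genes were read next, from lists written from gene function, beside 4.29% of all genes at least 2-fold higher and 4.53% lower in Snail against Vector. Counts and medians of a list include the members that belong to it. DCN, LUM, FN1, CCN5 and ADAMTS1 entered Snail against Vector through the Snail array alone, so counts of the lists are descriptions. Of 9 small leucine-rich proteoglycan genes compared between Snail and Vector, of 17 on the array, DCN, LUM and BGN were the 3 at least 2-fold higher and 0 were lower. The list's median was 0.26, against 0.01 over all genes. Of 8 compared with DHA in Snail cells, 1 was 2-fold higher, against 1.3% of all genes. It was ECM2, an extracellular matrix protein gene with leucine-rich repeats, at 7.79 in Snail+DHA against 6.69 in Snail cells.

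In the SPARC and testican family, 3 of 6 genes compared were 2-fold higher with Snail, SPOCK1, SPARC and FSTL1, a secreted follistatin-like protein. FSTL1 read 10.81 in Snail against 8.70 in Vector cells, a difference of 2.11, and 9.12 in Snail+DHA cells, a difference of -1.69 from Snail cells. The family median was 0.92 in Snail against Vector and -0.46 in Snail+DHA against Snail. Among hyaluronan-binding proteoglycans and link proteins, 1 of 5 genes compared was 2-fold higher with Snail, VCAN itself.

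The wider matricellular list held 13 genes compared between Snail and Vector, with 6 at least 2-fold higher and 0 lower, and a median of 0.80. Besides MGP and FN1 these were CCN2 and CCN1, secreted regulators of adhesion known as targets of TGF-β and of YAP, thrombospondin-1 (THBS1), which activates latent TGF-β, and CCN5. CCN2 differed by 3.28, CCN1 by 2.87 and THBS1 by 1.34. In Snail+DHA against Snail cells, 5 of the 13 compared had a log2 difference of -1 or below and 0 of 1 or above, again MGP with CCN1 (-2.49), CCN2 (-1.76), THBS1 (-1.81) and CCN5 (-1.09), the last named after its values were seen. CCN5 was not above background in Snail+DHA cells, and its bound is at least 1.94-fold lower. Over all genes, 2.4% were lower and 1.3% higher. On the TGF-β background THBS1 was higher with DHA, by 1.26, while CCN1 and CCN2 differed by -0.10 and 0.16. TGFBI, a TGF-β induced matrix protein, was higher with TGF-β than with Vector by 1.57, and by 0.80 with Snail.

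**Figure D5:**
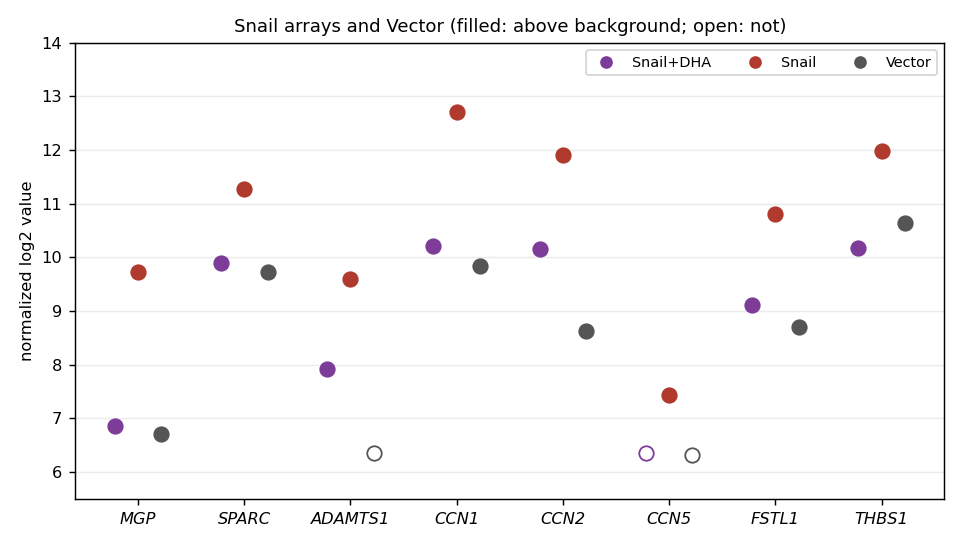
Normalized log2 value (y axis) in Snail+DHA (purple), Snail (red) and Vector (grey) cells, 1 array each, of the 2 members and 6 other genes of the lists (x axis) that differed at least 2-fold in both Snail against Vector and Snail+DHA against Snail. The genes were picked by these values, and in each the Snail array is the highest, so the order is a description. An open point was not above background.

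The enzymes that build chondroitin and dermatan sulfate chains mostly stayed within 2-fold, with 2 of 17 compared 2-fold higher with Snail and 1 lower, and a median of 0.17. The sulfotransferase CHST7 and the epimerase DSEL were higher by 1.32 and 1.31, and the other epimerase, DSE, read 10.50 in Snail against 11.55 in Vector cells, a difference of -1.05. XYLT1, which starts the chain by adding xylose, was at least 2.16-fold higher with TGF-β. Of 3 proteoglycan-cleaving ADAMTS genes compared, ADAMTS1 was at least 9.14-fold higher with Snail, and its Snail+DHA minus Snail difference was -1.67. Among receptors of these proteins, 1 of 9 was 2-fold higher with each inducer, the fibronectin receptor subunit ITGA5, by 1.25 with Snail and 1.02 with TGF-β. Over all genes, 1.17% were at least 2-fold higher with TGF-β. VKORC1, which recycles vitamin K, the cofactor needed to modify MGP, was higher by 1.09 with Snail, the 1 of 3 genes of that pathway.

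Among 1725 genes with an SD of at least 0.5 over the 6 arrays, those with the profile most like each member were named by Pearson r over 6 arrays. For MGP these were GALNT15, MAP2 and ANKRD1 (r of 0.99 for each of the first 2 and 0.985 for the last), each also highest on the Snail array. SPARC was closest to HCFC1R1 and the basement membrane collagen COL4A1 (both 0.99), which also read lower with DHA on all 3 backgrounds. BGN was closest to MFGE8, a secreted glycoprotein (0.997), and to smooth muscle actin ACTA2 (0.98), both of which, like BGN, were lowest in TGFb+DHA cells. FN1 was closest to SERPINE2 (0.97), and VCAN to the surface glycoprotein THY1 (0.99). TNC was closest to the interferon-stimulated genes IFIT1 (0.93), IFIT2 (0.91) and PARP9 (0.91), which were likewise highest in Vector cells. DCN was closest to PCDH9, LUM to the chemokine receptor ACKR1 (both 0.998) and SPOCK1 to MED16 (0.976). These values were picked as the highest of many over 6 shared arrays and are a description.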

How the data were processed

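RNA of HMLE cells was hybridized to 6 arrays, 1 for each condition. The authors processed them with the IlluminaExpressionFileCreator module of GenePattern and quantile normalized them. The background setting was not given in the sources used here. Deposited normalized values are on a log2 scale, the base being inferred from their range, and were used as they are. The deposited non-normalized values are intensities that reach 3123899, above what a scanner records. Their natural logarithm has the order (Spearman correlation of 1) and range of the log2 table, so each was taken as e raised to a log2 signal, and the restored signals, corrected by normexp with an offset of 50, served as an alternative.

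Low signals of an array gave each of its probes a detection p, and p under 0.05 was called above background. Of the probes, 30113 have 1 gene symbol in the platform table, 8 several and 17202 none. Genes with a probe that passed on 1 array or more numbered 13239, each read from its probe of highest mean. Pairs of arrays were compared without a test, by a log2 difference of at least 1 among genes detected on 1 or both. The additive model was fitted in limma 3.58.1 under R 4.3.3 with a variance trend, and tested on simulated data. Alternatives were the restored signals, common-median scaling, no detection filter or one at p under 0.01, the probe of highest variance or the mean of probes, no variance trend, leaving out a background, and, added after seeing the data, only genes above background on both arrays. From each list, up to 4 genes besides the members were named by their largest difference in Snail or TGF-β against Vector, with DSE, ECM2 or CCN5 where a count called for it. The members and lists were chosen with earlier results of these data known.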

Additional observations from a re-analysis of the deposited data

Results flagged for a closer look

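BGN stood out because its DHA differences ran in opposite directions on different backgrounds. It differed by 1.03 on the log2 scale in DHA against Vector cells and by -1.42 in TGFb+DHA against TGFb cells, where it was not above background on the TGFb+DHA array. In Snail+DHA against Snail cells it differed by -0.55. With 1 array in each condition the difference between backgrounds was not tested. BGN has 1 probe on the array, so no second probe bears on it.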

How the results depend on the processing

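Under the alternatives tried, no member reversed a called direction, and 51 of 59 counts of members stayed within 1.5 times the value reported, as did 559 of 567 single values on their side of 2-fold or of the adjusted p. Part of these agreements could not have come out otherwise. The other detection filters kept the same probe for each member, so no log2 difference between 2 arrays could change. For BGN, VCAN, SPOCK1 and SPARC, with 1 probe each, the choice of probe could not change one either. In TGFb against Vector the count of members at least 2-fold apart was 1 with the mean of probes. In DHA against Vector it was 2 with common-median scaling (SPARC and TNC, with 332 genes against 198), 2 with the probe of highest variance and 2 with the mean of probes. An alternative chosen after seeing the data counted only genes above background on both arrays. It left 5 of 6 members in Snail against Vector, all higher, against 4.285% of genes higher. In TGFb against Vector it left 1 of 5 (SPOCK1, higher), against 1.273% of genes higher. In TGFb+DHA against TGFb it left 1 of 5 (SPARC, lower), against 3.851% of genes lower. For the DHA term of the additive fit, 2 members were called without the Vector background. With common-median scaling the higher genes made up 36.25% of all 2-fold calls in Snail against Vector (48.65% with quantiles), 4.52% in DHA against Vector (18.69%), 12.11% in Snail+DHA against Snail (35.05%), 13.55% in TGFb+DHA against TGFb (36.11%) and 64.19% in TGFb+DHA against DHA (49.67%). With that scaling SPOCK1 in TGFb+DHA against TGFb was at -1.06. The labels carry no replicate numbers. In the additive fit DHA was 1 term shared by all backgrounds, and its difference on a single background was read only from a pair of arrays. Signals near background, as for DCN and LUM outside the Snail arrays, give only bounds.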
